A study of Salmo salar with 18 samples.

Results

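The gills of Atlantic salmon fed LAN4 were compared with those of salmon fed the control diet (CD) 1 h after an acute hypoxia stress. LAN4 is CD with a small addition of a hydrolyzed yeast product from Debaryomyces hansenii. The comparison took the 3 libraries labelled LAN4 and the 3 labelled CD at 1 h post-stress, 1 fish per library, which are 6 of the 18 libraries of the series. Both diets were fed for 7 weeks and then through 1 week of acclimatization in new tanks. The fish sampled at 1 h had been lifted from the water in a net for 1 min and put back, while the pre-stress groups (3 LAN4 fish and 3 CD fish) had not. All fish came from 1 commercial genetic line. The pre-stress libraries were kept in the same model, and the libraries of 6 h were left out. Which tank each sequenced fish came from is not given in the sources used here, so tank cannot be told apart from diet or from sampling time. Lane 1 of the sequencer held every 1 h library and lane 3 every pre-stress library. The diets were thus compared within a lane at each time.

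The gill is the surface where fish take up oxygen, excrete carbon dioxide and ammonia and exchange salts with the water, and lifting a fish into air collapses it. Its thin filaments hold epithelial cells, ion-transporting ionocytes, mucous cells, pillar cells that line the blood spaces, immune cells, and cartilage with small muscles as support. Salmon red blood cells have a nucleus and carry RNA, so blood in the gill is part of what is sequenced. When tissue loses oxygen and regains it, reactive oxygen species form, which cells detoxify through glutathione, thioredoxin and superoxide dismutase. Cells under stress also switch on immediate early genes, transcription factors and RNA-binding proteins that need no prior protein synthesis.

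Between 15499047 and 16807628 fragments were counted in the LAN4 libraries of 1 h and between 13921266 and 19851609 in the CD libraries. Gill markers were present in both diets. The ionocyte sodium, potassium and chloride cotransporter slc12a2 was measured at 522.5 ± 111 CPM in LAN4 and 643 ± 138 CPM in CD, and the ionocyte factor foxi3a at 64.9 ± 12.2 CPM in LAN4 and 72.4 ± 4.79 CPM in CD (SD, n = 3 each; CPM are fragments per 1000000 counted, with the library size scaled by TMM; SE is a standard error). The correlation of log2 CPM between LAN4 and CD libraries lay between 0.941 and 0.969, and that between libraries of one diet between 0.949 and 0.977, so the libraries of 1 h did not part by diet over the genes as a whole. The third CD library (CD replicate 3) stood apart in skeletal muscle genes, as described with them. Fish were taken as independent, and p-values measure the spread between these fish, not that between tanks.

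Of 33024 genes tested with the quasi-likelihood test of edgeR, 3 were higher and 2 were lower in LAN4 than in CD at a Benjamini-Hochberg adjusted p under 0.05, which is 0.00908% and 0.00606% of all genes and 0.0151% together. At an unadjusted p under 0.05, 3088 genes (9.35%) differed, 1761 higher (5.33%) and 1327 lower (4.02%). In 2305 genes (6.98%) all 3 LAN4 fish were above all 3 CD fish, and in 2344 (7.1%) all LAN4 fish were below, 14.1% in all. Most differences were small. Among the 29797 genes with a mean of at least 1 CPM, the middle of the distribution from the 25th to the 75th percentile ran from -0.15 to 0.15 on the log2 scale, and 342 genes were higher and 145 lower by more than 1. All 5 genes passed the threshold under each of the 23 alternatives. The count rose to 17 without LAN4 replicate 2 of 1 h, and was 8 without CD replicate 1 and 8 without CD replicate 3. It depended most on the test. DESeq2 called 46 genes higher (0.14%) and 16 lower (0.0486%) on the same 12 libraries, and 73 higher (0.203%) and 33 lower (0.0918%) on the 6 libraries of 1 h alone. The likelihood ratio test of edgeR called 54 higher (0.164%) and 17 lower (0.0515%).

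**Figure D1:**
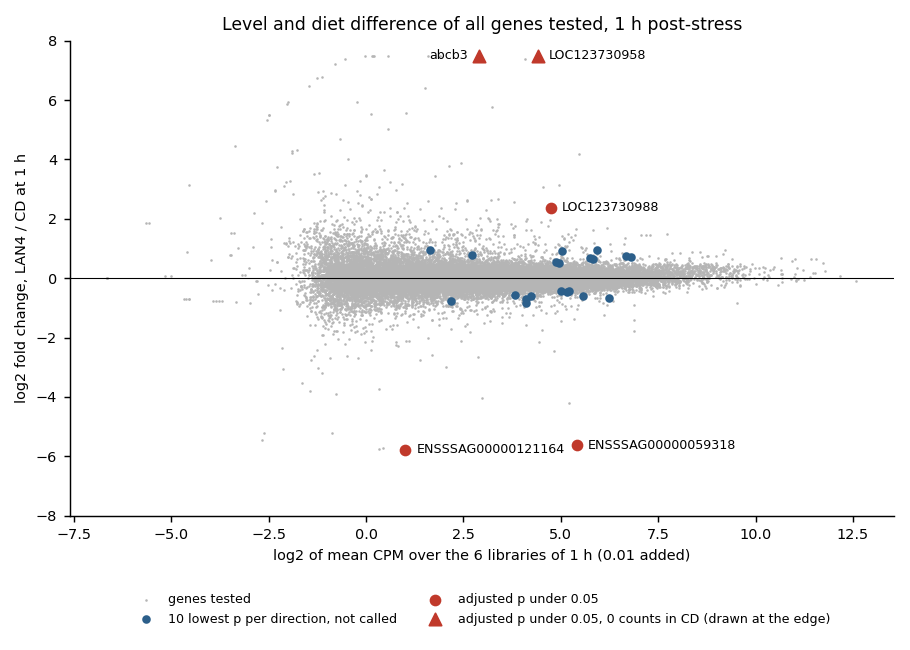
Each gray point is 1 of the 33024 genes tested, with the log2 of its mean CPM over the 6 libraries of 1 h on the x axis and the log2 fold change of LAN4 over CD on the y axis. Red symbols are the 5 genes past the adjusted threshold and blue points the 20 uncalled genes named by rule. Values beyond 7.5 are drawn at the edge, and those of the red triangles are not measured folds because CD had 0 counts.

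The 3 genes that were higher in LAN4 lie side by side on chromosome 27 of the Ssal_v3.1 assembly, all on the plus strand. One of them, abcb3 (ENSSSAG00000042201, from 10536644 to 10543577), also listed as tap2, encodes a subunit of the transporter that carries peptides into the endoplasmic reticulum for loading onto MHC class I molecules. It had 259, 246 and 200 counts in the LAN4 fish and 0 counts in each of the 3 CD fish. In CPM, the LAN4 fish had 15.4, 16.04 and 13.1. Set against 3 counts per CD library, abcb3 was at least 82.8-fold higher in LAN4 (edgeR adjusted p = 4.59e-06). The gene was not missing from CD fish in general, as the pre-stress groups had 316, 229 and 165 counts in LAN4 and 566, 458 and 273 counts in CD.

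LOC123730958 (ENSSSAG00000115503, from 10558363 to 10564750), which lies past abcb3, showed the same pattern. It had 646, 736 and 629 counts in the LAN4 fish at 1 h and 0 counts in each CD fish, and was at least 237-fold higher in LAN4 (edgeR adjusted p = 9.5e-05). At pre-stress it had 758, 664 and 315 counts in LAN4 and 1218, 803 and 515 counts in CD. The third gene, LOC123730988 (ENSSSAG00000096214, from 10533315 to 10535804), lies before abcb3 and was detected in all 6 fish. It was measured at 44.5, 43.8 and 46.2 CPM in LAN4 and at 8.29, 7.74 and 9.91 CPM in CD (log2 fold change 2.38, SE 0.22, edgeR adjusted p = 0.000838). At pre-stress its CPM were 49.9, 35.6 and 37.5 in LAN4 and 82.9, 54.3 and 43.4 in CD, so the CD fish of 1 h stood below every other fish in all 3 genes.

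The genes around them, named after their values were seen, did not all have the same sign. None of those given here passed the threshold with the quasi-likelihood test of edgeR. ENSSSAG00000099702 (from 10474942 to 10510971) had 793, 777 and 775 CPM in LAN4 and 459, 381 and 388 CPM in CD (log2 fold change 0.93, SE 0.17, edgeR adjusted p = 0.268). It passed with DESeq2 on 12 libraries (adjusted p = 0.000102) and on 6 libraries (2.34e-13), and with the likelihood ratio test of edgeR (0.002). At pre-stress it had 615, 750 and 720 CPM in LAN4 and 1001, 988 and 615 CPM in CD. ENSSSAG00000077419 (from 10426981 to 10465906) had the opposite sign, with 42.2, 54.3 and 62.85 CPM in LAN4 and 69.8, 269.7 and 205.9 CPM in CD (edgeR adjusted p = 0.455). At pre-stress it had 38.6, 61.9 and 52.55 CPM in LAN4 and 26.45, 50.7 and 36.95 CPM in CD. The CD fish of 1 h thus stood above every other fish in this gene. The tapasin gene tapbp, whose product holds MHC class I molecules at the peptide transporter, had 57.5, 54.5 and 58.65 CPM in LAN4 and 60.6, 57.8 and 53.4 CPM in CD. The difference was -0.01 on the log2 scale (SE 0.13). On the far side of the 3 genes, the chromatin reader brd2 had 45.5, 37.0 and 43.9 CPM in LAN4 and 46.6, 45.7 and 42.1 CPM in CD. A stretch that holds the 3 called genes thus lies between tapbp and brd2, in which the diets overlapped. Fragments that mapped to more than one place were not counted by the authors, and whether near-identical gene copies or differences between the fish and the reference sequence bear on these counts was not tested.

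Both genes that were lower in LAN4 lie on unplaced scaffolds. RefSeq names were matched on numbered chromosomes only, so neither gene could receive one. ENSSSAG00000059318 had 19, 43 and 18 counts in the LAN4 fish and 1616, 1592 and 1028 counts in the CD fish. In CPM these were 1.13, 2.804 and 1.18 in LAN4 and 111.6, 77.5 and 63.3 in CD (log2 fold change -5.63, SE 0.39, edgeR adjusted p = 0.000216). At pre-stress it had 9, 12 and 19 counts in LAN4 and 26, 26 and 34 counts in CD, so its high level was found in the CD fish of 1 h and in no other group of the 4. ENSSSAG00000121164 had 0, 2 and 1 counts in the LAN4 fish and 68, 67 and 63 counts in the CD fish (edgeR adjusted p = 2.01e-06). The ratio of CD over LAN4 was 61.1, with an exact 95% interval from 20.6 to 298.5 that covers counting error only. The pre-stress fish had 0, 2 and 0 counts in LAN4 and 1, 1 and 1 counts in CD.

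**Figure D2:**
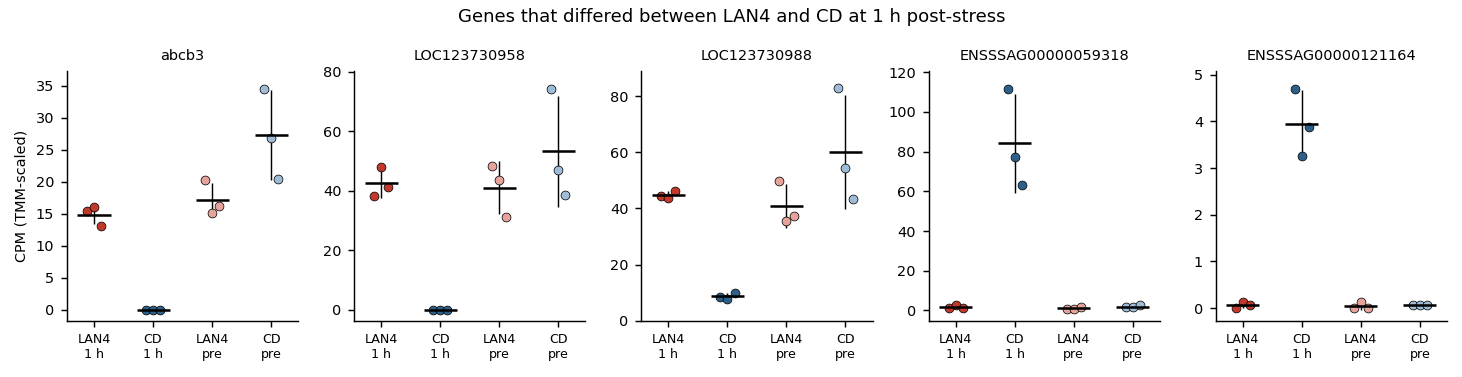
CPM of the 5 genes past the adjusted threshold, in LAN4 and CD at 1 h post-stress and at pre-stress. Each point is 1 fish, the horizontal bar is the mean and the vertical line the SD (n = 3 per group). In abcb3 and LOC123730958 the CD fish of 1 h lie at 0 CPM, and in the last 2 panels the CD fish of 1 h lie above all other fish.

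A further gene had 0 counts in all CD fish of 1 h and at least 10 in each LAN4 fish, and it is named after its values were seen. ENSSSAG00000084378, on an unplaced scaffold, had 204, 19 and 69 counts in LAN4 at 1 h and 0, 0 and 0 counts in CD. It did not pass the threshold (edgeR adjusted p = 0.49). Among the CD fish at pre-stress it had 102, 81 and 1 counts, so single fish also differed within a group. The reverse pattern, 0 counts in all LAN4 fish and at least 10 in each CD fish, was found in 0 genes, abcb3, LOC123730958 and ENSSSAG00000084378 being the 3 genes of the first kind. By the same rule at pre-stress, 1 gene was counted in LAN4 only and 2 in CD only.

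The difference between the diet contrasts at 1 h and at pre-stress was tested as an interaction in the same model. It passed the threshold in 4 genes (0.0121%), all with the higher contrast at 1 h, while an unadjusted p under 0.05 was found in 3519 genes (10.7%), 4.97% in that direction and 5.68% in the other. At pre-stress itself 0 genes were higher in LAN4 and 1 was lower (0.00303%), LOC106601074, with 9.72% at an unadjusted p under 0.05 (6.15% higher and 3.57% lower). All LAN4 fish lay above all CD fish in 9.19% of genes at pre-stress and below in 7.12%. The 4 genes of the interaction were abcb3, LOC123730958, LOC123730988 and LOC106601074, and the values are given in the closing section. Across the 29797 genes with at least 1 CPM, the log2 fold changes at 1 h and at pre-stress had a correlation of 0.0558, which is a description, since genes are not independent replicates. The 2 contrasts share no fish. Of 2815 such genes with an unadjusted p under 0.05 at 1 h, 42.4% had the same sign at pre-stress, against 46.4% of all 29797.

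Past the 5 called genes, the genes with the lowest p and no overlap between the diets are given as values. The 10 highest ranked in each direction had adjusted p-values between 0.264 and 0.374 and log2 fold changes between 0.42 and 0.95 in size, and 4 of these 20 have a symbol. Among them, nme1 (ENSSSAG00000009542), a nucleoside diphosphate kinase that makes nucleoside triphosphates, was measured at 87.6, 62.0 and 90.9 CPM in LAN4 and at 36.3, 44.0 and 44.3 CPM in CD (log2 fold change 0.95, SE 0.17, edgeR adjusted p = 0.268). Its pre-stress difference was 0.51 on the log2 scale (SE 0.16). The inhibitor of NF-kB nfkbiab (ENSSSAG00000049805), which keeps that transcription factor in the cytoplasm, had 58.4, 71.35 and 69.7 CPM in LAN4 and 39.4, 45.2 and 38.8 CPM in CD (log2 fold change 0.69, SE 0.13, edgeR adjusted p = 0.268). Its pre-stress difference was -0.11 (SE 0.13). The splicing factor syf2 (ENSSSAG00000110580) had 36.2, 49.5 and 42.45 CPM in LAN4 and 20.6, 24.7 and 21.9 CPM in CD (log2 fold change 0.93, SE 0.19, edgeR adjusted p = 0.338).

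In the other direction, paplna (ENSSSAG00000094436), which encodes the extracellular matrix protein papilin, had 31.9, 32.2 and 31.5 CPM in LAN4 and 40.5, 44.3 and 43.0 CPM in CD (log2 fold change -0.42, SE 0.09, edgeR adjusted p = 0.354). Its groups were narrow and apart. LOC106590697 on chromosome 29 had 59.3, 65.5 and 48.5 CPM in LAN4 and 95.3, 97.8 and 85.1 CPM in CD (log2 fold change -0.68, SE 0.12), while its pre-stress difference was 0.01. LOC106604605 on chromosome 5 had 11.2, 12.85 and 13.1 CPM in LAN4 and 19.3, 22.5 and 23.8 CPM in CD (log2 fold change -0.83, SE 0.16). LOC106599739 on chromosome 3, on the LAN4-high side, had 134.5, 134.9 and 148.5 CPM in LAN4 and 91.45, 85.1 and 80.4 CPM in CD (log2 fold change 0.70, SE 0.13). The pre-stress fish had less of it in both diets, between 44.2 and 51.0 CPM in LAN4 and between 40.3 and 59.0 CPM in CD. Of the 20 genes, 9 had the same sign at pre-stress. With DESeq2 on the 6 libraries of 1 h, nme1 (adjusted p = 0.000126), nfkbiab (0.000928), syf2 (5.58e-05) and LOC106599739 (1.25e-06) passed the threshold on the LAN4-high side, and LOC106590697 (0.0029) and LOC106604605 (0.00168) on the LAN4-low side. Of the genes with a symbol, paplna did not pass there (0.145) and passed with DESeq2 on 12 libraries (0.0202). The LOC genes shown are a part of the 20. LOC106604293, with the lowest p of the uncalled genes, had 36.4 ± 1.01 CPM in LAN4 and 25.3 ± 2.23 CPM in CD (SD). Its adjusted p was 0.264 with edgeR and 0.0415 with DESeq2 on 6 libraries. On the LAN4-low side, LOC106565529, LOC106580605 and LOC106613187 passed under none of the alternatives.

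**Figure D3:**
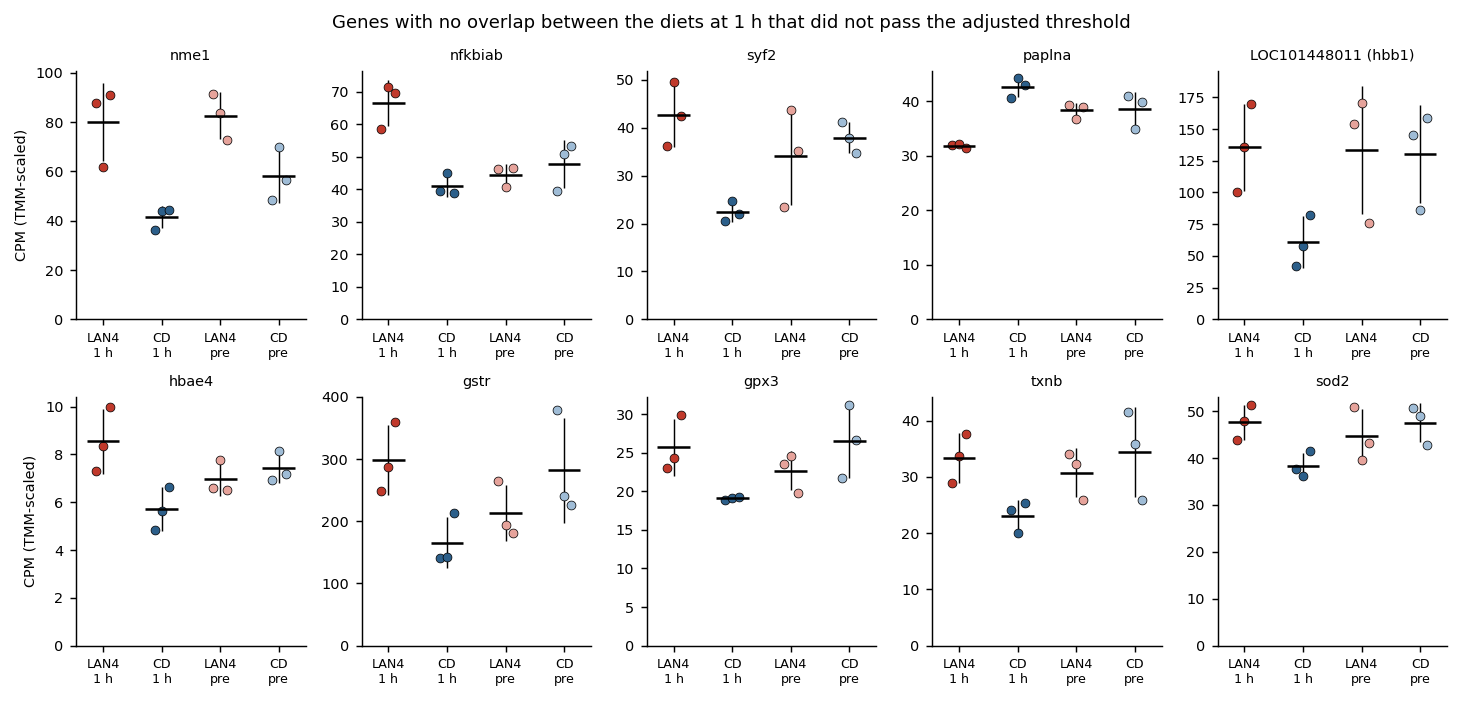
CPM of 10 genes in which all LAN4 fish lay above or all below the CD fish at 1 h and which did not pass the adjusted threshold of edgeR, in LAN4 and CD at 1 h and at pre-stress. Each point is 1 fish, the horizontal bar is the mean and the vertical line the SD (n = 3). For hbb1 the LAN4 fish of 1 h lie between 100.7 and 169.8 CPM and the CD fish between 41.8 and 82.6 CPM.

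Gene groups were described with 28 lists of symbols, of which the member abcb3 alone passed the threshold of edgeR. The lists hold the few salmon genes that carry a symbol, 7439 of those tested, so many family members named only by a LOC number are not in them. Each list is set beside all genes tested, of which 5.33% were higher and 4.02% lower at an unadjusted p under 0.05, 6.98% had all LAN4 fish above and 7.1% all below, and whose median log2 fold change was 0.00.

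**Figure D4:**
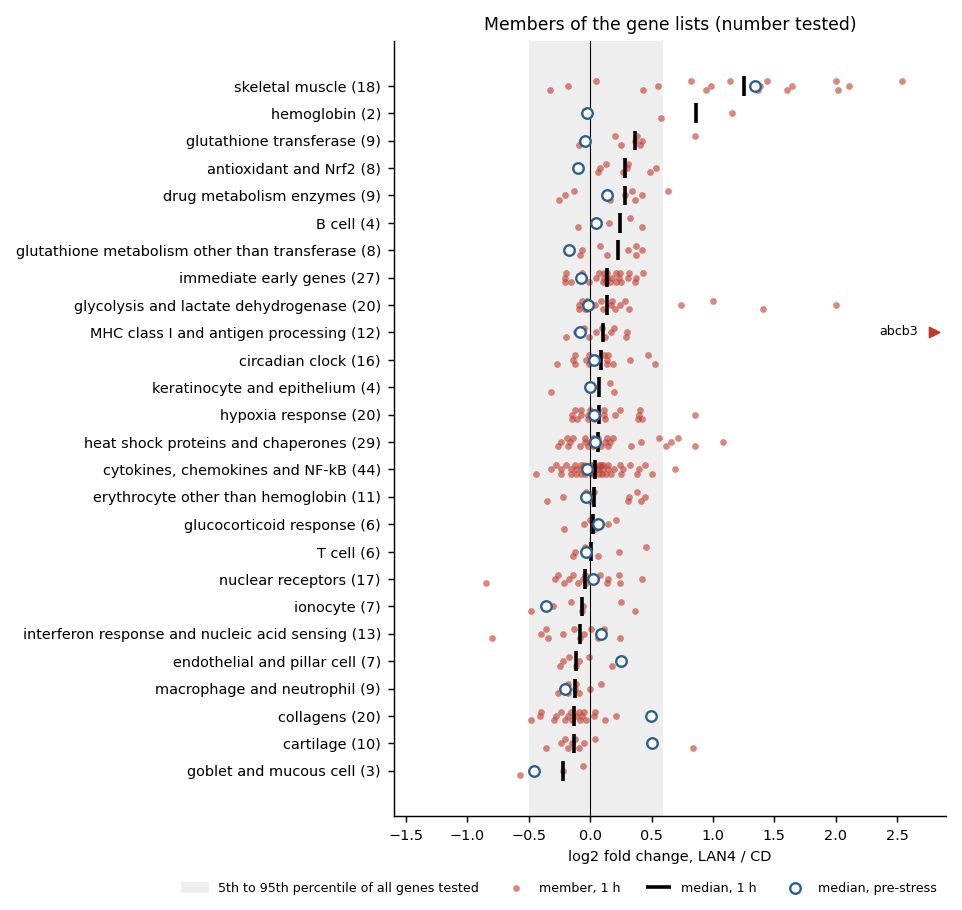
The x axis is the log2 fold change of LAN4 over CD. Red points are members of a list at 1 h, black bars their median at 1 h and open circles the median of the same members at pre-stress, and the gray band runs from the 5th to the 95th percentile of all genes tested at 1 h. The medians of the lists of hemoglobin, of glutathione transferase and of antioxidant and Nrf2 genes lie to the right of 0 at 1 h (0.87, 0.37 and 0.28). At pre-stress they lie at or to the left of it (-0.03, -0.04 and -0.10). The muscle median lies at 1.25 at 1 h and 1.34 at pre-stress, and abcb3 is drawn at the edge.

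Oxygen transport was covered only by the 2 hemoglobin genes matched by symbol or synonym, both with every LAN4 fish above every CD fish and neither past the adjusted threshold. Globin genes named only by a LOC number are not in the list. The beta globin hbb1 (LOC101448011) was measured at 100.7, 135.8 and 169.8 CPM in LAN4 and at 41.8, 58.1 and 82.6 CPM in CD. The diets differed by 1.15 on the log2 scale (SE 0.37, edgeR adjusted p = 0.493). For hbb1, DESeq2 gave an adjusted p of 0.00202 on 6 libraries and 0.231 on 12, against 0.154 with the likelihood ratio test of edgeR. At pre-stress hbb1 had 133 ± 50.7 CPM in LAN4 and 130.1 ± 38.5 CPM in CD (SD, n = 3), and the spread within each group was wide. The alpha globin hbae4 had 7.30, 8.35 and 9.97 CPM in LAN4 and 4.835, 5.645 and 6.65 CPM in CD (log2 fold change 0.58, SE 0.17, edgeR adjusted p = 0.473). In whole gill, more red cells and more RNA per red cell cannot be told apart.

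Other red cell genes were read beside the globins. Of 11 tested, 7 were positive and 4 negative, the lowest at -0.35 on the log2 scale. All LAN4 fish lay above all CD fish in 5 and below in 0. At an unadjusted p under 0.05, 4 were higher, and the median log2 fold change was 0.03. Without single fish of 1 h this median ran from 0.0080 (without LAN4 replicate 2) to 0.18 (without CD replicate 1), and it was -0.04 with library-size scaling. The erythroid transcription factor gata1 had 38.6, 30.6 and 33.98 CPM in LAN4 and 23.4, 22.5 and 29.7 CPM in CD (0.45 on the log2 scale, SE 0.16). The ammonia and gas channel rhag had 627, 624 and 558.5 CPM in LAN4 and 539, 472.5 and 452 CPM in CD (0.31, SE 0.12). The heme synthesis enzyme alas2 had 454, 402 and 515 CPM in LAN4 and 337, 293 and 396 CPM in CD (0.42, SE 0.19), and its groups were just apart. The summed level of the 11 genes was between 1583 and 1725 CPM in LAN4 and between 1304 and 1555 CPM in CD, and at pre-stress between 1345 and 1503 CPM in LAN4 and between 1317 and 1551 CPM in CD. In such a sum the abundant members rhag and alas2 weigh heavily. The part of the 11 genes in the globin difference was not tested.

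Glutathione transferases, which join glutathione to reactive compounds, had 9 members tested, of which 7 were positive, 3 had all LAN4 fish above and 2 were higher at an unadjusted p under 0.05. Their median log2 fold change was 0.37, and -0.04 at pre-stress. The member with the lowest p was gstr, with 249.5, 288 and 360 CPM in LAN4 and 141, 143 and 213 CPM in CD (log2 fold change 0.85, SE 0.24, edgeR adjusted p = 0.463). It passed with DESeq2 on the 6 libraries (adjusted p = 0.00578) and neither with DESeq2 on 12 libraries (0.076) nor with the likelihood ratio test of edgeR (0.139). At pre-stress gstr had 213 ± 44.8 CPM in LAN4 and 282 ± 84.4 CPM in CD. The difference of 1.25 on the log2 scale between its 2 contrasts (SE 0.33) did not pass as an interaction (edgeR adjusted p = 0.328). The membrane-bound mgst3b had 58.6, 79.5 and 82.3 CPM in LAN4 and 53.9, 52.1 and 65.0 CPM in CD, so the groups overlapped. The omega class enzyme gsto1 had 142, 181 and 192 CPM in LAN4 and 120.5, 124.5 and 151 CPM in CD and also overlapped.

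Of 8 other genes of glutathione metabolism, 4 had all LAN4 fish above, all 4 at an unadjusted p under 0.05, and the median was 0.22 at 1 h and -0.17 at pre-stress. The secreted glutathione peroxidase gpx3 had 22.98, 24.3 and 29.85 CPM in LAN4 and 18.9, 19.2 and 19.3 CPM in CD (0.43, SE 0.14). The lipid hydroperoxidase gpx4a had 15.2, 18.4 and 19.1 CPM in LAN4 and 12.85, 13.1 and 14.6 CPM in CD (0.38, SE 0.14). Glutathione reductase gsr, which regenerates the reduced form, had 138, 145 and 189 CPM in LAN4 and 121, 117 and 126 CPM in CD (0.37, SE 0.17), and chac1, which breaks glutathione down, had 106.9, 110.2 and 142 CPM in LAN4 and 106.5, 83.4 and 99.6 CPM in CD. The lowest LAN4 and highest CD value of chac1 were nearly equal.

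The antioxidant and Nrf2 list, called antioxidant here, holds keap1a besides antioxidant genes. Its 8 genes tested were all positive. Of them, 5 had an unadjusted p under 0.05 and 4 had all LAN4 fish above, keap1a among both. The median was 0.28 at 1 h and -0.10 at pre-stress. The thioredoxin txnb had 28.9, 33.7 and 37.7 CPM in LAN4 and 24.0, 19.95 and 25.4 CPM in CD (0.53, SE 0.17, edgeR adjusted p = 0.49). The mitochondrial superoxide dismutase sod2 had 43.8, 47.9 and 51.2 CPM in LAN4 and 37.6, 36.1 and 41.5 CPM in CD (0.31, SE 0.11). The gene keap1a, for a sensor of oxidants that holds the factor Nrf2 back, had 19.1, 14.5 and 16.3 CPM in LAN4 and 12.1, 12.6 and 10.96 CPM in CD (0.49, SE 0.18), and the peroxiredoxin prdx1 had 99.3, 99.7 and 110 CPM in LAN4 and 80.4, 80.4 and 96.2 CPM in CD. In the globins and these 3 redox lists, 2, 3, 4 and 4 members had all LAN4 fish above and 0 had all below. Over all genes tested these shares were 6.98% and 7.1%. Among the transferases 2 members were negative, and among the other glutathione genes 2. The lists were chosen with earlier results of these data known. Their members were measured in the same fish and are not independent. Summed antioxidant CPM were 474 to 523 (LAN4) and 402.5 to 456 (CD) at 1 h. The pre-stress sums, 464 to 514 (LAN4) and 487 to 541 (CD), lay above those of CD at 1 h. Transferase CPM summed to 566 to 788 (LAN4) and 407 to 560 (CD) at 1 h. Before stress they summed to 421 to 570 (LAN4) and 476 to 716.5 (CD). Other glutathione genes summed to 457 to 548.5 CPM (LAN4) and 412 to 449 CPM (CD) at 1 h. Before stress they summed to 341 to 422.5 CPM (LAN4) and 423 to 502.5 CPM (CD). Without single fish of 1 h, the median ran from 0.20 to 0.49 for the transferases, from 0.11 to 0.37 for glutathione metabolism and from 0.21 to 0.37 for the antioxidant genes.

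Among 9 drug metabolism genes, 3 were higher at an unadjusted p under 0.05 and the median was 0.28. The sulfotransferase sult6b1 had 57.2, 65.7 and 79.6 CPM in LAN4 and 40.0, 38.9 and 51.5 CPM in CD (0.64, SE 0.24), without overlap. The epoxide hydrolase ephx1 had 17.3, 21.85 and 21.5 CPM in LAN4 and 14.4, 15.5 and 18.17 CPM in CD. The cytochrome cyp1a listed as LOC100136916, a target of the aryl hydrocarbon receptor, had 380, 512 and 354 CPM in LAN4 and 388, 291.5 and 253 CPM in CD, with overlap. The 17 nuclear receptors, which sense hormones and fatty acids, had a median of -0.04 and 0 members at an unadjusted p under 0.05. All LAN4 fish were above in 0 members and below in 2, esr1 and ppardb. The fatty acid receptor ppardb had 8.55, 10.6 and 9.64 CPM in LAN4 and 11.7, 10.95 and 11.9 CPM in CD. The estrogen receptor esr1 had 0.594, 0.522 and 0.394 CPM in LAN4 and 0.760, 0.973 and 0.985 CPM in CD. The esr1 values rest on few counts, 10, 8 and 6 in LAN4 and 11, 20 and 16 in CD. Its pre-stress difference had the opposite sign, 0.84 on the log2 scale.

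The response to the stress itself was covered by immediate early, hypoxia, glucocorticoid and heat shock lists. The 27 immediate early genes summed to between 2437 and 2742 CPM in LAN4 and between 2030 and 2490 CPM in CD at 1 h, against between 908 and 928 CPM in LAN4 and between 823 and 1037 CPM in CD at pre-stress, which was sequenced on another lane. In both diets the 1 h fish thus stood above the pre-stress fish, and the diets overlapped at 1 h. Of the 27 genes, 20 were positive, 5 were higher at an unadjusted p under 0.05 and 6 had all LAN4 fish above, with a median of 0.14. The mRNA decay factor tisb had 504, 560 and 581 CPM in LAN4 and 470.5, 422 and 381 CPM in CD (0.37, SE 0.14). The growth arrest gene gadd45ga had 10.3, 11.9 and 12.7 CPM in LAN4 and 9.26, 8.47 and 8.13 CPM in CD (0.43, SE 0.13), the factor klf4 (LOC100217346) had 34.8, 38.2 and 44.8 CPM in LAN4 and 30.6, 32.2 and 31.7 CPM in CD, and the flow-responsive factor klf2a overlapped between the diets (215, 175 and 201 CPM in LAN4 and 177, 155 and 126 CPM in CD).

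The 20 hypoxia genes had a median of 0.07, with 2 higher at an unadjusted p under 0.05. One was vhl, whose product marks hypoxia-inducible factor for degradation, with 52.3, 57.8 and 57.2 CPM in LAN4 and 40.5, 39.4 and 46.25 CPM in CD (0.41, SE 0.13). The other, ndrg1a, which other vertebrates induce in hypoxia, had 23.1, 26.8 and 33.8 CPM in LAN4 and 16.2, 22.9 and 24.6 CPM in CD. The 6 glucocorticoid genes had 0 members at an unadjusted p under 0.05 and a median of 0.02. Of 29 heat shock proteins and chaperones, 2 were higher at an unadjusted p under 0.05, 3 had all LAN4 fish above and 2 all below, and the median was 0.06. The small heat shock protein hspb6l had 54.3, 64.8 and 68.8 CPM in LAN4 and 47.2, 41.7 and 52.5 CPM in CD (0.41, SE 0.15), without overlap. The 16 clock genes had a median of 0.09 and 3 members with all LAN4 fish above, among them dbpb, a clock output factor, with 108, 111 and 93.1 CPM in LAN4 and 79.0, 77.8 and 68.6 CPM in CD (0.47, SE 0.17), and hlf (LOC100380463), a factor of the same family, with 90.7, 94.2 and 83.4 CPM in LAN4 and 73.4, 67.0 and 74.1 CPM in CD.

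Antigen presentation through MHC class I, the pathway of abcb3, had 12 members tested. Besides abcb3, 4 had all LAN4 fish above all CD fish, and 2 of these were higher at an unadjusted p under 0.05, with differences far smaller than that of abcb3. The proteasome activator psme1 had 77.4, 77.7 and 85.9 CPM in LAN4 and 63.5, 61.7 and 70.8 CPM in CD (0.30, SE 0.09, edgeR adjusted p = 0.49). The immunoproteasome subunit psmb12 had 46.6, 52.0 and 46.2 CPM in LAN4 and 36.2, 37.7 and 44.1 CPM in CD (0.30, SE 0.12). The median of the 12 was 0.11 at 1 h and -0.08 at pre-stress, where 0 members had all LAN4 fish above and 3 had all below. The invariant chain gene cd74a of the class II pathway had 3432, 4103 and 3842 CPM in LAN4 and 3241, 3164 and 3234 CPM in CD (0.24, SE 0.14), without overlap.

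Of the 44 cytokine, chemokine and NF-kB genes, 4 were higher at an unadjusted p under 0.05, 4 had all LAN4 fish above and the median was 0.04. The 4 with the lowest p were nfkbiab, the receptor il17rd, with 27.1, 26.0 and 29.7 CPM in LAN4 and 22.4, 20.7 and 23.03 CPM in CD (0.33, SE 0.11), the interferon gamma receptor ifngr1l1, with 11.3, 12.0 and 11.2 CPM in LAN4 and 9.26, 8.66 and 8.56 CPM in CD, and the chemokine ccl25b, which overlapped (38.4, 67.8 and 58.4 CPM in LAN4 and 33.4, 34.9 and 47.85 CPM in CD). The 13 interferon response and nucleic acid sensing genes had 0 members at an unadjusted p under 0.05 and 0 with all fish of one diet above the other, and their median was -0.08. The antiviral gene mx2 varied within both diets, with 2.55, 6.91 and 8.00 CPM in LAN4 and 10.3, 15.0 and 4.74 CPM in CD.

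Skeletal muscle genes differed most among the lists and also varied most between fish. Of 18 tested, 16 were positive, 7 were higher at an unadjusted p under 0.05, 7 had all LAN4 fish above, and the median log2 fold change was 1.25. Their summed level was 724, 443 and 455 CPM in the LAN4 fish and 386.5, 413 and 138 CPM in the CD fish, the last being CD replicate 3, in which 8 of the 18 genes had 0 counts, the muscle-defining myl1, tnnt3a and ckmb among them. The fast troponin tnni2a.2 had 1.54, 1.04 and 1.25 CPM in LAN4 and 0.483, 0.438 and 0 CPM in CD (log2 fold change 2.02, SE 0.55, edgeR adjusted p = 0.437). The parvalbumin prvb, a calcium buffer, had 3.92, 1.96 and 4.72 CPM in LAN4 and 0.967, 0.827 and 0 CPM in CD. Without CD replicate 3 the median was 0.74, without LAN4 replicate 1 it was 0.74, and without CD replicate 2 it was 1.94. At pre-stress the summed level was 817, 982.5 and 904 CPM in LAN4 and 179.9, 585 and 418 CPM in CD, with all LAN4 fish above all CD fish in 16 of the 18 genes.

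The 20 genes of glycolysis and lactate dehydrogenase, the pathway that makes ATP without oxygen, had 13 positive members, 3 higher at an unadjusted p under 0.05 and a median of 0.14. The triosephosphate isomerase tpi1b had 137, 132 and 140 CPM in LAN4 and 108, 109 and 120 CPM in CD (0.28, SE 0.09, edgeR adjusted p = 0.493). The glyceraldehyde phosphate dehydrogenase G3P (LOC100136417) had 15.1, 10.3 and 17.4 CPM in LAN4 and 4.14, 5.60 and 0.739 CPM in CD, and the enolase eno3, the form of muscle in mammals, had 18.8, 9.59 and 17.1 CPM in LAN4 and 6.29, 8.42 and 2.28 CPM in CD. G3P and eno3 were lowest in CD replicate 3, as were the muscle genes, and their pre-stress differences were 1.68 and 1.22 on the log2 scale. A second enolase entry, LOC100194636 (ENO3), had 10.45, 14.9 and 14.9 CPM in LAN4 and 10.1, 9.25 and 4.68 CPM in CD. Its log2 fold change was 0.74 at 1 h (SE 0.34) and 1.29 at pre-stress. The part of muscle content in these values was not tested.

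**Figure D5:**
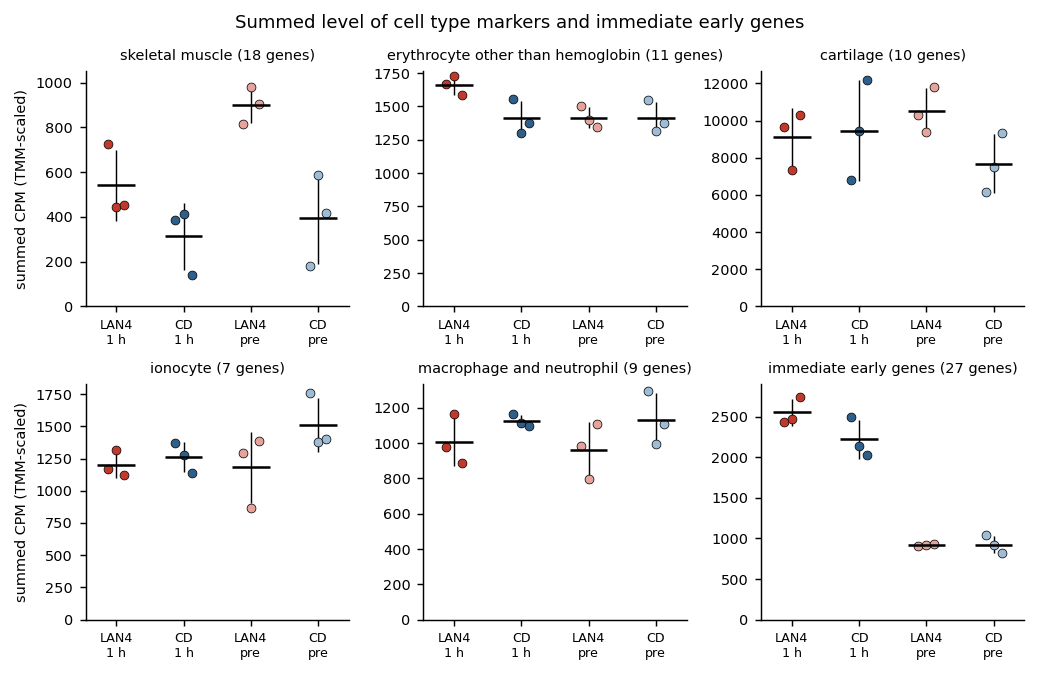
Summed CPM of 5 lists of cell type markers and of the immediate early genes, in LAN4 and CD at 1 h and at pre-stress. Each point is 1 fish, the horizontal bar is the mean and the vertical line the SD (n = 3). The muscle sum of CD replicate 3 at 1 h (138 CPM) lies below all other fish, and the immediate early sums of 1 h (2030 to 2742 CPM) lie above those of pre-stress (823 to 1037 CPM).

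Collagen and cartilage lists had medians under 0 at 1 h, unlike muscle. Of 20 collagen genes, 16 were negative, 0 had all LAN4 fish above and 3 had all below, 1 was lower at an unadjusted p under 0.05 and the median was -0.13 (from -0.025 without LAN4 replicate 2 to -0.23 without CD replicate 1), while at pre-stress the median of the same genes was 0.49 with 10 members all above. The collagen col21a1 had 31.95, 24.1 and 30.1 CPM in LAN4 and 34.95, 37.5 and 42.1 CPM in CD (-0.41, SE 0.17, edgeR adjusted p = 0.513), and the fibrillar chain col5a2a had 133, 93.3 and 103 CPM in LAN4 and 138, 138 and 123 CPM in CD. The 10 cartilage genes had a median of -0.14 at 1 h, which ran from -0.32 to 0.22 without single fish. The defining cartilage collagen col2a1b overlapped between the diets, with 231, 119 and 166 CPM in LAN4 and 151, 205 and 239 CPM in CD.

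Markers of the other gill cell types had medians between -0.22 and 0.24. The proton pump subunit atp6v1ab of ionocytes had 9.26, 9 and 8.46 CPM in LAN4 and 11.7, 13.8 and 11.8 CPM in CD (-0.48, SE 0.15, edgeR adjusted p = 0.49), without overlap, while the summed level of 7 ionocyte genes was between 1122 and 1319 CPM in LAN4 and between 1134 and 1369 CPM in CD. The epithelial stem cell factor tp63 had 51.1, 45.3 and 38.3 CPM in LAN4 and 51.5, 58.3 and 58.4 CPM in CD (-0.32, SE 0.12). The 3 mucous cell genes were all negative, with a median of -0.22 at 1 h and -0.45 at pre-stress, and fer1l6 among them had 5.94, 7.43 and 4.33 CPM in LAN4 and 10.4, 9.25 and 6.71 CPM in CD. Of 9 macrophage and neutrophil genes 8 were negative, with a median of -0.12 and 0 members at an unadjusted p under 0.05. The 7 endothelial, 6 T cell and 4 B cell genes had 0 members at an unadjusted p under 0.05 and medians of -0.12, 0.01 and 0.24.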

How the data were processed

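Gill RNA was sequenced as paired-end reads from a stranded library. The authors aligned it with the nf-core rnaseq pipeline to Ssal_v3.1 and deposited raw counts, the fragments that featureCounts (Subread 1.5.1 in the submitters' notes) assigned to each of 69389 Ensembl genes. Counting was reverse-stranded, left out fragments with several places or overlapping genes, and kept duplicates. The 12 libraries held between 10128626 and 19851609 counts. Genes were kept by filterByExpr on the 4 groups, TMM-scaled and fitted with edgeR 4.0.16 (estimateDisp, robust glmQLFit, glmQLFTest, 1 mean per group), with p-values adjusted over all 33024 genes. The procedure was tested on simulated data. It recovered 58 of 100 genes changed 2-fold and 96 of 100 changed 4-fold, with 6 false calls. The changed genes were drawn from those above a minimum mean CPM, with the fitted dispersions. Far more genes were changed there than were called here, which makes the adjusted threshold easier to pass. These shares therefore do not give the power in the real data. DESeq2 1.42.0 on raw counts was an alternative (R 4.3.3, Python 3.11.15). Names came from RefSeq by position on the numbered chromosomes only, with at least 0.5 of each span shared (34335 genes). Fold bounds were set against 3 counts per library. SARTools, which the authors used, was not run.

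Named genes were every gene called at 1 h (30 or fewer), the 10 uncalled genes with the lowest p in each direction among those with a mean log2 CPM of at least 1, no overlap and a RefSeq name, given in part, and up to 4 members of each list with the lowest p. Other genes were named after their values were seen (slc12a2, foxi3a, chromosome 27 neighbours, muscle markers at 0). Genes and lists were chosen with earlier results of these data known. Patterns of 2 lists were narrowed after genes of other families (mxd1, mxd3, mxd4, mxra8, hspg2) were seen in them. The list of UDP-glucose dehydrogenase and patched had 1 member, ptch1 (log2 fold change -0.33, SE 0.17).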

Additional observations from a re-analysis of the deposited data

Results flagged for a closer look

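The diet contrast differed between 1 h and pre-stress in 4 genes by the interaction term of the model. The contrast at 1 h minus that at pre-stress was 11.52 on the log2 scale for abcb3 (adjusted p = 1.95e-05 by edgeR) and 12.74 for LOC123730958 (adjusted p = 0.000423). Both values were fitted with 0 counts in the CD fish of 1 h, so they depend on the model and are not measured folds. For LOC123730988 it was 2.93 (SE 0.30, adjusted p = 0.00398 by edgeR), with LAN4 higher by 2.38 at 1 h and a log2 fold change of -0.55 at pre-stress.

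For LOC106601074 (ENSSSAG00000103747, chromosome 3, from 64127956 to 64129475), near hbb1 and named after its values were seen, the interaction was 2.14 (SE 0.28, adjusted p = 0.0292 by edgeR). The pre-stress fish had 134, 127 and 106 CPM in LAN4 and 551, 394 and 501 CPM in CD (log2 fold change -1.98, adjusted p = 0.00755 by edgeR). At 1 h the diets overlapped, with 357, 366 and 554 CPM in LAN4 and 354, 467 and 321 CPM in CD. LOC106601074 has no symbol, and whether it is a globin was not tested. As the pre-stress and 1 h fish were on different lanes, an effect of lane cancels in these values only if it acted alike in both diets, and this was not tested.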

How the results depend on the processing

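The 5 genes called at 1 h became 8 with edgeR on the 6 libraries of 1 h, 62 and 106 with DESeq2 on 12 and on 6 libraries, and 71 with the likelihood ratio test of edgeR. They stayed at 5 with legacy glmQLFit, without the robust option, with RLE or library-size scaling, and without or with a stricter filter on low counts. Leaving out each of the 12 fish gave between 5 and 17. The 4 interaction calls became 133 with DESeq2, 122 with the likelihood ratio test and 7 without a filter, and between 3 and 16 without single fish. Deviations of same-numbered LAN4 and CD fish of 1 h from their group means had correlations of 0.09, -0.06 and 0.19. Fish of 1 h with different numbers had correlations from -0.20 to 0.12. At pre-stress these were 0.09, 0.18 and 0.14 for the same number and from -0.12 to -0.02 for different numbers. With 3 fish per group, such correlations cannot settle whether the numbers pair the fish. A replicate block gave 5 calls at 1 h and 3 for the interaction. Library-size scaling moved the median of all genes to -0.06. Without single fish, the log2 fold change of LOC106601074 ran from -0.074 to 0.33 and that of tapbp from -0.057 to 0.025. Of 86 genes with values under the alternatives, the other 84 kept their direction wherever an alternative gave a value; esr1, tnni2a.2, LOC123741587 and ENSSSAG00000014585 each had none under 1 alternative. The muscle markers myl1, ckmb and tnnt3a, the second enolase entry LOC100194636 and the chromosome 27 neighbour LOC106588399 were not run. Differences between tanks cannot be told apart from those between diets or sampling times.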

Other observations

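The 106 genes called by DESeq2 on the 6 libraries of 1 h were described as a group, with no test beyond that call. All LAN4 fish were above all CD fish in 70 of them and below in 31, against 6.98% and 7.1% of all genes tested. The call rests on the same fish, so this is no further support for it. Genes on unplaced scaffolds could not receive a RefSeq name. Only 54 of the 106 have a RefSeq name and 8 a symbol or synonym, namely abcb3, syf2, nme1, nfkbiab, hbb1, gstr, pir and hdlbpb. The last 2 were named after their values were seen. Pirin, pir, an iron-binding nuclear protein that is induced by Nrf2 in mammals, had 49.8, 57.5 and 78.0 CPM in LAN4 and 32.3, 27.55 and 41.7 CPM in CD (adjusted p = 0.0143 by DESeq2 on 6 libraries, 0.0776 by DESeq2 on 12 libraries and 0.463 by edgeR). The RNA-binding protein vigilin, hdlbpb, had 16.5, 16.5 and 11.9 CPM in LAN4 and 26.0, 27.1 and 22.7 CPM in CD (adjusted p = 0.0213 by DESeq2 on 6 libraries, 0.11 by DESeq2 on 12 libraries and 0.437 by edgeR).

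DESeq2 on 12 libraries, DESeq2 on 6 libraries and the likelihood ratio test of edgeR shared 36 genes, 27 higher and 9 lower in LAN4. Of these, 34 had no overlap between the diets, against 14.1% of all genes tested. The tests used the same fish, so the lack of overlap is no further support for the calls. The 5 genes called by the quasi-likelihood test were among these 36. The 2 with overlap are named after their values were seen. LOC123741587 had 58.6, 0.130 and 41.7 CPM in LAN4 and 0.138, 0.195 and 0.246 CPM in CD, so LAN4 replicate 2 lay below the CD fish and the other LAN4 fish above them. ENSSSAG00000014585 had 4.69, 0.0652 and 12.2 CPM in LAN4 and 0.0691, 0.0487 and 0.0616 CPM in CD.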
